A study of Mus musculus with 6 samples.

Results

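Genes of epithelial cell junctions and their regulators were chosen by name, with earlier results of these data known. How often these genes differ, relative to all genes, is thus a description only. The set holds 45 genes, taken through probe sets that the platform annotation assigns to that symbol alone. Of these, 44 were measured, among the 22180 genes of the series. Zeb2 has no probe set of its own symbol and is not analysed here. The measured genes were 18 of tight junctions, 5 of adherens junctions and cell adhesion, 10 of desmosomes and 11 regulators. Cdh1, Cdh2 and Dsg2 had 2 probe sets each and are given as their mean.

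Epithelial cells are held together by 3 kinds of contact, which these genes build or regulate. Tight junctions seal the space between neighbouring cells and consist of claudins, occludin and related membrane proteins anchored to a cytoplasmic plaque. Adherens junctions join cells through classical cadherins tied to catenins, and desmosomes join them through desmogleins and desmocollins that the plaque proteins link to keratin filaments. In the heart, desmosomal proteins and N-cadherin serve another contact, the intercalated disc between cardiomyocytes. Grainyhead-like factors, OVOL1, ELF3 and the splicing regulators ESRP1 and ESRP2 maintain the epithelial state, whereas the ZEB, Snail and Twist factors repress junction genes in an epithelial-to-mesenchymal transition.

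Each of the 6 libraries was hybridised to 1 Affymetrix Mouse Gene 2.0 ST array and was the only library of its group. The cultures came from iPS cells (induced pluripotent stem cells) put through a cardiac differentiation protocol and collected on day 7. They had spent 5 days as embryoid bodies and received 1% DMSO plus 100 ng/ml NRG-1 (neuregulin 1, a ligand of ERBB receptors), NRG-1 alone, or DMSO alone. The other libraries were labelled adult cardiomyocytes, neonatal cardiomyocytes and undifferentiated iPS cells. All are labelled as female DBA/2J mice, and no age is given beyond adult and neonatal. The iPS cells were grown on feeder cells in medium with serum and LIF, and a share of feeder RNA in that library was not tested. No differentiated culture without DMSO and NRG-1 was part of the set.

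With 1 library per group no difference could be tested, and every value below describes these libraries. Levels are log2 values as the authors deposited them, and a difference is the first named library minus the second. A gene counted as higher or lower when it was at least 2-fold apart and the brighter of its values reached the median of all values, 5.20, called the filter here. Since no detection calls were used, a level under the filter may be background, and a difference to such a level may be compressed. For genes with 2 probe sets, the SD of the gap between the sets was divided by the square root of 2, as an error per probe set. This error was 0.55 to 0.60 for differences from iPS cells, 0.34 for adult minus neonatal, and 0.20 to 0.30 among the cultures. The SD of the gap itself is larger. Cells of a type that were fewer and RNA per cell that was lower cannot be told apart in these bulk samples.

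The label checks bear on every heart comparison. The libraries labelled adult and neonatal had the Y-linked gene Eif2s3y at 8.15 and 6.20, against 3.27 in iPS cells, although all samples are labelled female. The X-linked gene Xist was at least 2-fold higher than in iPS cells in the neonatal library and at least 2-fold lower in the adult one. Of 8 cardiomyocyte markers, 3 reached the filter in the adult library and 7 in the neonatal library, beside 6 in iPS cells, and the adult library had the cardiac myosin gene Myh6 at 5.05. All 6 fibroblast markers reached the filter in both, and the log2 of their summed level was 14.3 in the adult and 14.0 in the neonatal library, against 9.82 in iPS cells. The cultures had the fibroblast sum at 12.5 with DMSO+NRG-1, 12.3 with NRG-1 and 12.6 with DMSO. All 6 pluripotency markers reached the filter in iPS cells. Both heart libraries therefore go under their labelled names with this limit, and comparisons of the cultures with iPS cells do not use them.

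Of the epithelial markers Epcam, Ocln and Dsp, the last 2 were at least 2-fold higher in each culture than in iPS cells, and Epcam was not. Together with the simple keratins Krt8, Krt18 and Krt19, all 6 reached the filter in each culture and also in iPS cells. The log2 of their summed level lay at 13.6 with DMSO+NRG-1, 13.7 with NRG-1 and 13.8 with DMSO. It was 8.56 in the adult, 10.4 in the neonatal and 10.1 in the iPS library. Markers of visceral endoderm moved with them, their log2 summed level being 11.9 with DMSO+NRG-1, 12.6 with NRG-1 and 11.9 with DMSO, against 8.65 in iPS cells. All 6 of these reached the filter in each culture and 3 in iPS cells. Afp, Ttr, Apoa1 and Apob were at least 2-fold higher than in iPS cells in each culture, Cubn only with NRG-1 and Amn in none. Afp (alpha-fetoprotein) was at 10.81 with DMSO+NRG-1, 11.48 with NRG-1 and 10.72 with DMSO, against 4.76 in iPS cells. Of 5 measured surface epithelium markers, Sprr1a, Ivl and Krt13 were above the filter in every culture, and none of the 5 reached it in iPS cells. In the adult library 2 of the 5 reached it, and in the neonatal library 4. Sprr1a was at least 2-fold higher than in iPS cells in both heart libraries, and Krt13 in the neonatal one. Other markers were higher than in iPS cells in the cultures as well. Of 6 mesothelial markers, Msln and Upk1b were at least 2-fold higher in each culture and Upk3b with DMSO, while Wt1 was lower with DMSO+NRG-1. Their log2 summed level was 11.1 with DMSO+NRG-1, 9.73 with NRG-1 and 11.4 with DMSO, against 9.02 in iPS cells. Of 6 fibroblast markers 5 were at least 2-fold higher in each culture, of 8 cardiomyocyte markers 5 with DMSO+NRG-1, 4 with NRG-1 and 5 with DMSO, and of 6 macrophage markers Cd68 and Csf1r in each. All 6 pluripotency markers were lower in each culture. The part of these cell types in the junction gene results was not tested.

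**Figure D1:**
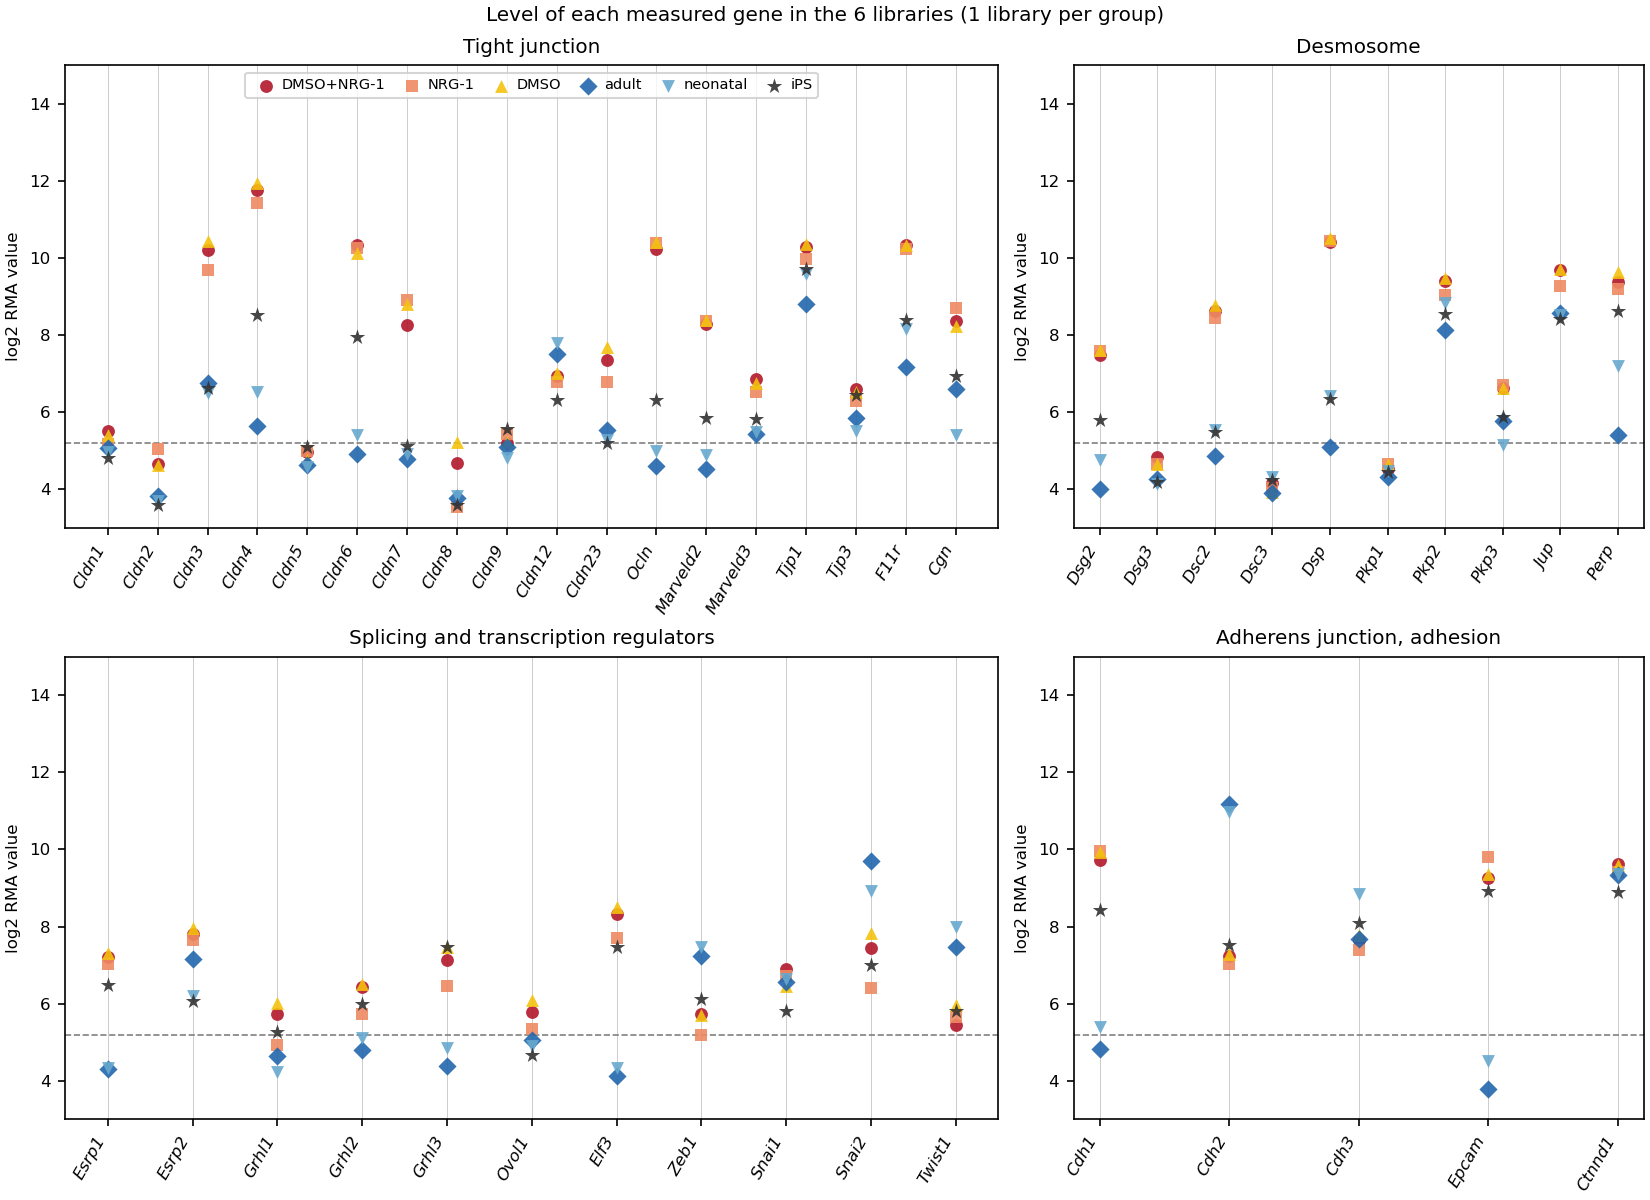
Log2 level (vertical axis) of each of the 44 measured genes in each of the 6 libraries, in 4 panels by class. A symbol is 1 library, colours mark the group, and the dashed line is the filter at 5.20. For genes such as Ocln, Cldn6 and Dsc2 the 3 cultures lie close together at the top, whereas for Cdh2 the adult and neonatal libraries lie at the top.

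Over the whole set, regulators included, the cultures had more genes higher than lower relative to iPS cells. With DMSO+NRG-1, 18 of the 38 genes past the filter were at least 2-fold higher, with 13.0% of all genes as background, and 0 were lower, with 13.1% as background. With NRG-1 alone 14 of 37 were higher (background 11.3%) and 1, Grhl3, was lower (14.5%). With libraries shifted to equal housekeeping levels, 21 were higher and 0 lower with NRG-1. With DMSO alone 19 of 39 were higher (13.1%) and 0 lower (13.3%). The median difference over all 44 was 0.82, 0.57 and 0.88 for DMSO+NRG-1, NRG-1 and DMSO, where the median over all genes was -0.0219, -0.00196 and -0.00232. These comparisons share the iPS library, so they are not independent of each other.

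Relative to iPS cells the heart libraries had the opposite balance. In the adult library 14 of 35 genes past the filter were lower (background 14.1%) and 6 higher (13.1%). In the neonatal library 12 of 35 were lower (11.2%) and 5 higher (13.0%). The cultures and the heart libraries could also be compared directly by their ranges. In 19 of 39 genes past the filter the lowest culture was at least 2-fold above the higher heart library (4.64% of all genes), and in 4 the highest culture was at least 2-fold below the lower heart library (4.71%). The genes in which the cultures were below were Cdh2, Zeb1, Snai2 and Twist1. In 5 of 39 genes (Ocln, Cldn4, Cldn6, Cdh1 and Dsg2) iPS cells lay between, with every culture at least 2-fold above and both heart libraries at least 2-fold below them (0.233% of all genes).

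**Figure D2:**
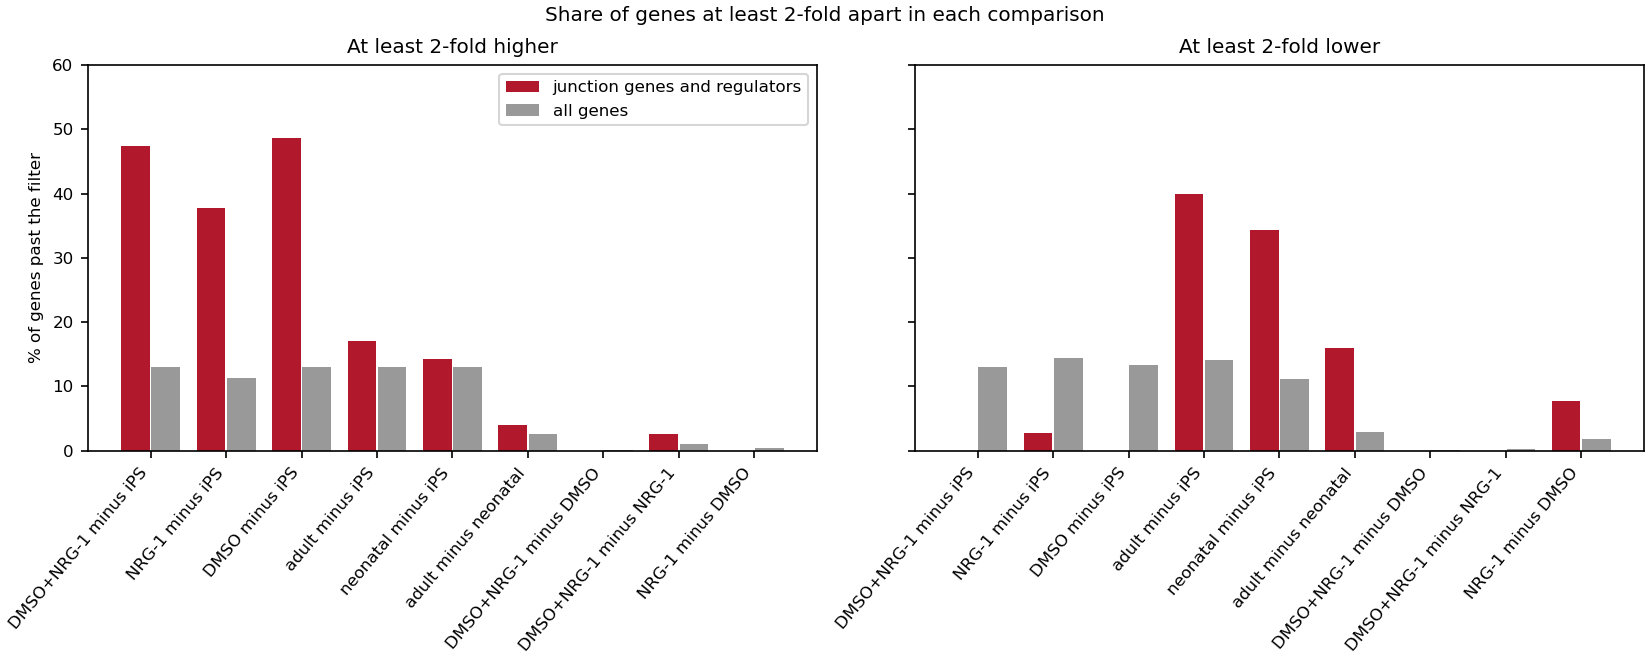
Percent of genes past the filter (vertical axis) that were at least 2-fold higher (left panel) or lower (right panel) in each of 9 comparisons. Red bars stand for the junction genes and regulators and grey bars for all genes. The red bars reach 47.4%, 37.8% and 48.7% for the 3 cultures against iPS cells in the left panel, and 40.0% and 34.3% for the adult and neonatal libraries in the right panel.

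Promoters are shown for some genes in which every culture was at least 2-fold above both heart libraries. Most of those with a listed promoter share a short motif. The set was not chosen by this motif, but it was chosen by name and holds Snail and ZEB repressors beside junction genes. The motif and the choice of genes may thus not be independent. Snail and ZEB repressors bind E-boxes of the letters CACCTG, which read CAGGTG on the other strand, and both strands were searched. The window was 250 bases before to 30 bases after the annotated start of transcription, in the RefSeq promoter table of build GRCm38.p6. That table held 24 of the 45 genes, Zeb2 among them. All cultures were at least 2-fold above both heart libraries in 19 genes, of which the table held 12. An E-box was present for 10 of these 12, and for 2 of the other 12 held genes. The share with an E-box among all 27025 genes of the table was 21.3%. The other 12 were a mixed group. It included Zeb2, which was not measured, Cldn2 and Cldn5, under the filter in every library, and Twist1, which was lower in the cultures. The 10 were Cldn4, Cldn6, Cldn7, Ocln, Marveld2, F11r, Epcam, Dsp, Elf3 and Grhl3, and the 2 were Tjp3 and Snai1. Of the 10, Epcam and Grhl3 were at least 2-fold higher than in iPS cells in no culture, and Elf3 only with DMSO. The grouping came from measured values, so the counts are a description with no test, and a match is not a binding site. Promoters of the set were also richer in G and C, with a median of 58.0% per gene against 52.5% over all genes of the table. The grainyhead motif AACCGGTT was found in 0 of the 35 promoters of the set and in 0.131% of all promoters. A motif this rare would seldom be met in 35 promoters, so the count cannot show whether grainyhead sites are absent.

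In the sequences below, capitals mark the E-boxes. The window of Cldn4 is chr5:134946905-134947184 (minus strand), that of Cldn6 is chr17:23679115-23679394 (plus strand), and that of the first of 2 listed Ocln starts is chr13:100552469-100552748 (minus strand). Those of Epcam and Dsp are chr17:87635729-87636008 and chr13:38151044-38151323 (plus strand). Tjp1, at chr7:65371215-65371494 (minus strand), is shown as a tight junction gene without the motif, in which the lowest culture was 0.40 above the higher heart library.
Cldn4: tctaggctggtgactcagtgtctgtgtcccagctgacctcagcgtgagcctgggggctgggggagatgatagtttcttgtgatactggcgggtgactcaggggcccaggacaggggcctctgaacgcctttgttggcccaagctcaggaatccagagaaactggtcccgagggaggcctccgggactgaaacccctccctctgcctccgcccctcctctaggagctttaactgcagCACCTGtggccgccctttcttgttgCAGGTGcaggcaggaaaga
Cldn6: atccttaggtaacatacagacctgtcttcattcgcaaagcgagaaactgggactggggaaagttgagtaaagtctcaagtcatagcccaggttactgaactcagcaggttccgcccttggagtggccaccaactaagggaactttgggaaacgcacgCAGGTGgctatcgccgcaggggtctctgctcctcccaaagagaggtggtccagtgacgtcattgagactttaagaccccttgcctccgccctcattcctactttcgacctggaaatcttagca
Ocln: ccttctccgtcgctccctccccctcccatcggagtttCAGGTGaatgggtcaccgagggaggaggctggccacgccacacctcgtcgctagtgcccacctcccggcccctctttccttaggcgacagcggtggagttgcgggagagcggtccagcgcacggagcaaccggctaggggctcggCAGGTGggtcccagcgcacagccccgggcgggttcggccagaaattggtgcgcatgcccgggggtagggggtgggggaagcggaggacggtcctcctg
Epcam: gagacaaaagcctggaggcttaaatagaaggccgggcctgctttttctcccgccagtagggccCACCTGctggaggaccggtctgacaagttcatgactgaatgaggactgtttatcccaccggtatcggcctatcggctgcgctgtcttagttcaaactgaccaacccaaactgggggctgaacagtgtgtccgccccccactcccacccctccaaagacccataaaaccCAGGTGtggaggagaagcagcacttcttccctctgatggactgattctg
Dsp: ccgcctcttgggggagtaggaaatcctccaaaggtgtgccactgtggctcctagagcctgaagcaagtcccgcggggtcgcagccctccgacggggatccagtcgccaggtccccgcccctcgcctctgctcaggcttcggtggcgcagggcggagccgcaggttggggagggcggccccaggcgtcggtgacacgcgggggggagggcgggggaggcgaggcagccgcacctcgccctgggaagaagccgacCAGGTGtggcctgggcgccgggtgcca
Tjp1: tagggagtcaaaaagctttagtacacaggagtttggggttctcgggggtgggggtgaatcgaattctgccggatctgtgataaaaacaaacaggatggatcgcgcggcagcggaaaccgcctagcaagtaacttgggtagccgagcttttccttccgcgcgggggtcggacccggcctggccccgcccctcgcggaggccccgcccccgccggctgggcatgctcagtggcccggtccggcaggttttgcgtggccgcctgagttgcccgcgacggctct

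Many tight junction genes were higher in the cultures than in iPS cells. Of the 18 measured, 10 of 15 past the filter were at least 2-fold higher with DMSO+NRG-1 (13.0% of all genes), 9 of 14 with NRG-1 (11.3%) and 10 of 16 with DMSO (13.1%). In each culture 0 were lower, where the shares over all genes were 13.1%, 14.5% and 13.3% in that order. The median difference of the class was 1.27, 1.52 and 1.47 in that order. Ocln encodes occludin, the first tight junction membrane protein to be found. It stood at 10.23 with DMSO+NRG-1, 10.38 with NRG-1 and 10.42 with DMSO, against 4.61 in the adult, 4.99 in the neonatal and 6.32 in the iPS library. The cultures lay within 0.19 of each other and 3.91 to 4.10 above iPS cells. Marveld2 (tricellulin), which seals the corners where 3 cells meet, lies next to Ocln on chromosome 13. Its levels were 8.29, 8.36 and 8.38 with DMSO+NRG-1, NRG-1 and DMSO, against 4.51 in the adult, 4.87 in the neonatal and 5.83 in the iPS library. Marveld3, the remaining member of this family, differed from iPS cells by 1.04, 0.68 and 0.93 in the same cultures.

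Claudins form the paracellular seal, and Cldn3, Cldn4, Cldn6, Cldn7 and Cldn23 were at least 2-fold higher than in iPS cells in every culture. Cldn4, a barrier-forming claudin, was at 11.76 with DMSO+NRG-1, 11.42 with NRG-1 and 11.94 with DMSO, against 5.63 in the adult, 6.52 in the neonatal and 8.52 in the iPS library. Its neighbour on chromosome 5, Cldn3, another barrier claudin, was at 10.20, 9.68 and 10.45 in the same cultures, against 6.77 in the adult, 6.50 in the neonatal and 6.62 in the iPS library. So the order differed between these neighbours. Cldn4 was lower in both heart libraries than in iPS cells, by 2.89 in the adult and 2.00 in the neonatal library, whereas Cldn3 lay within 0.15 of iPS cells in both. Cldn6, a claudin of embryonic epithelia and pluripotent cells, was at 10.33 with DMSO+NRG-1, 10.26 with NRG-1 and 10.13 with DMSO, against 4.91 in the adult, 5.40 in the neonatal and 7.96 in the iPS library. Its neighbour on chromosome 17, Cldn9, did not share this pattern, with levels between 4.80 and 5.55 in all 6 libraries. Whether the probes of related claudins bind each other's transcripts was not tested.

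Cldn7, which interacts with EpCAM in epithelia, was at 8.27 with DMSO+NRG-1, 8.91 with NRG-1 and 8.81 with DMSO, against 4.77 in the adult, 4.90 in the neonatal and 5.13 in the iPS library. Cldn23 was higher than in iPS cells by 2.15, 1.59 and 2.49 in the cultures with DMSO+NRG-1, NRG-1 and DMSO. The claudins Cldn1, Cldn2, Cldn5, Cldn8 and Cldn9 were dim. Cldn5, the main claudin of endothelium, lay under the filter in every library, between 4.57 and 5.08, and so did Cldn2, a pore-forming claudin, between 3.58 and 5.04. Cldn1, a claudin of the epidermal barrier, crossed the filter only with DMSO+NRG-1 and DMSO, at 5.50 and 5.39. Cldn12 ran the other way from the epithelial claudins. Its levels were 6.94 with DMSO+NRG-1, 6.77 with NRG-1 and 7.00 with DMSO, below the 7.52 of the adult and the 7.79 of the neonatal library and above the 6.30 of iPS cells.

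The scaffolds Tjp1 and Tjp3 were under 2-fold from iPS cells in every culture. Tjp1 (ZO-1), the scaffold that links claudins and occludin to actin, was present in every library, from 8.80 in the adult to 10.35 with DMSO, and differed from iPS cells by 0.58, 0.26 and 0.65 with DMSO+NRG-1, NRG-1 and DMSO. Tjp3 (ZO-3), a related scaffold of epithelial cells, lay between 5.52 in the neonatal library and 6.60 with DMSO+NRG-1. The adhesion molecule F11r and the plaque protein Cgn differed by more. F11r (JAM-A), an immunoglobulin-type adhesion molecule of the tight junction, was at 10.33, 10.24 and 10.34 in the cultures with DMSO+NRG-1, NRG-1 and DMSO, against 7.16 in the adult, 8.16 in the neonatal and 8.38 in the iPS library. Cgn (cingulin), which ties the plaque to actomyosin, was at 8.36, 8.71 and 8.23 in these cultures, against 6.60 in the adult, 5.41 in the neonatal and 6.93 in the iPS library. Every culture exceeded every other library for both genes.

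Of 32 other measured tight junction and polarity genes, 25 passed the filter. In each culture 10 of the 25, not all the same genes, were at least 2-fold higher than in iPS cells (11.3% to 13.1% of all genes), and Jam2, Jam3 and Ybx3 were lower, near the share over all genes (13.1% to 14.5%). In the adult library 6 were higher (13.1%) and in the neonatal library 7 (13.0%), while Jam2, Pard6b, Lsr and Ildr1 were lower in both, near the share over all genes (14.1% and 11.2%). Cxadr, the coxsackievirus and adenovirus receptor of epithelial and cardiac junctions, was at 9.32 with DMSO+NRG-1, 9.28 with NRG-1 and 9.46 with DMSO, against 6.38 in the adult, 6.82 in the neonatal and 6.16 in the iPS library. Patj, a scaffold of the Crumbs polarity complex, was at 8.30, 8.43 and 8.28 in these cultures, against 5.13, 5.70 and 5.61 in the adult, neonatal and iPS libraries. Jam2 (JAM-B) was instead brightest in iPS cells, at 9.47, and was 5.41, 5.26 and 5.47 in the cultures.

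**Figure D3:**
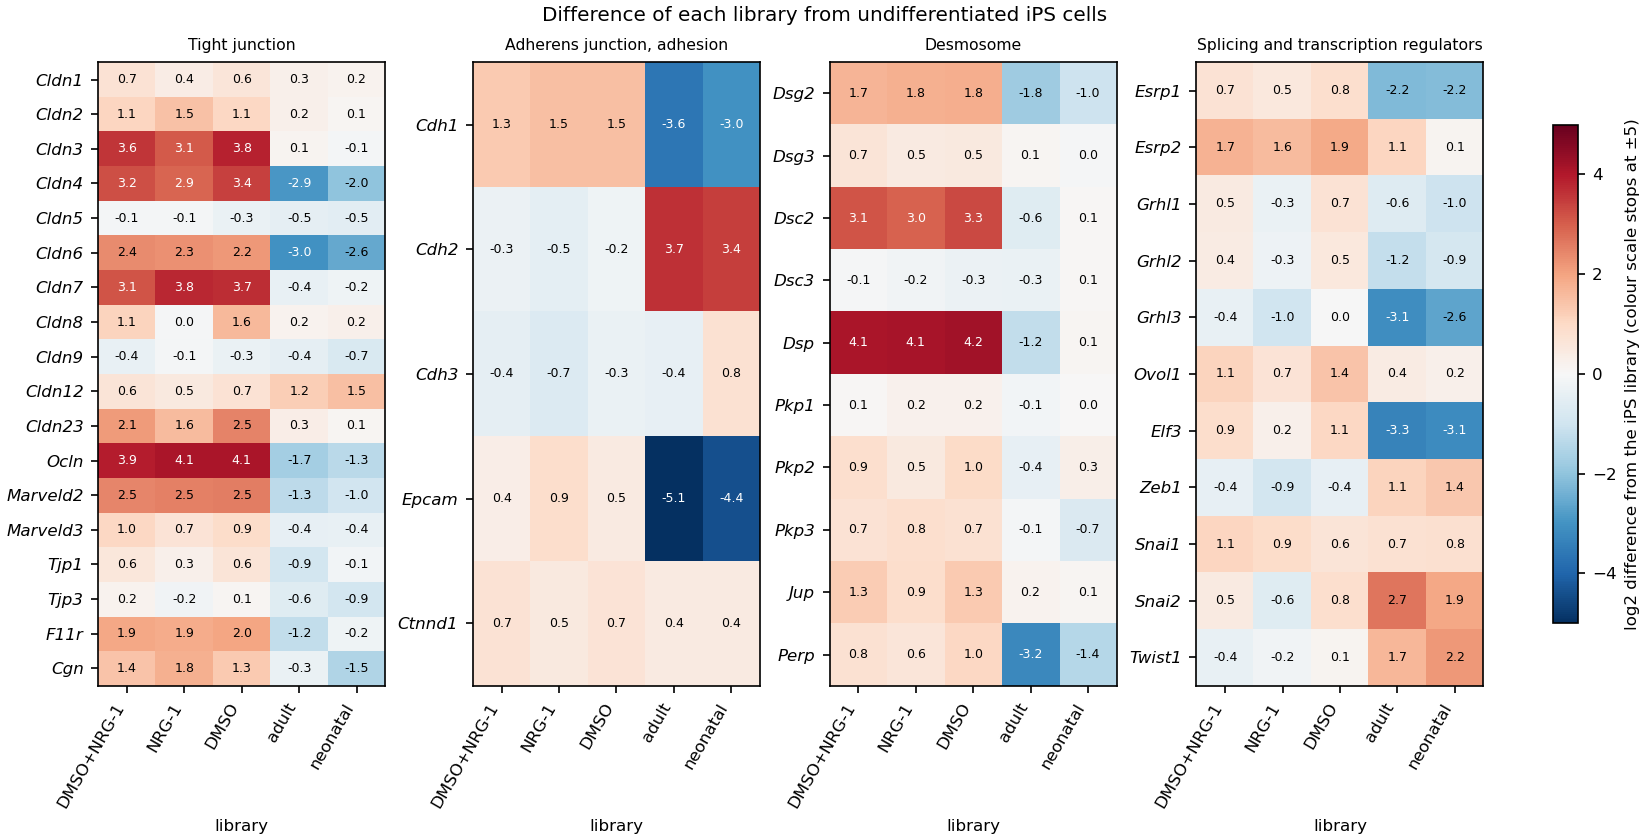
Log2 difference of each gene (rows) from the iPS library in the 3 cultures and the 2 heart libraries (columns), in 4 panels by class. Red is higher and blue lower than iPS cells, and the number in a cell is the difference. Tight junction rows such as Ocln (3.9, 4.1 and 4.1) are red in the cultures, while the Cdh2 row is red in the heart libraries (3.7 and 3.4) and the Epcam row blue there (-5.1 and -4.4).

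E-cadherin and N-cadherin ran in opposite directions between cultures and heart libraries. Cdh1 encodes E-cadherin, the defining cadherin of epithelia and also of pluripotent cells. It stood at 9.73 with DMSO+NRG-1, 9.95 with NRG-1 and 9.94 with DMSO, against 4.82 in the adult, 5.40 in the neonatal and 8.44 in the iPS library. Cdh2 encodes N-cadherin, which joins cardiomyocytes, fibroblasts and other mesenchymal cells. It stood at 7.23, 7.03 and 7.30 in the same cultures, against 11.19 in the adult, 10.96 in the neonatal and 7.52 in the iPS library. The cultures thus exceeded both heart libraries by at least 4.33 for Cdh1 and lay at least 3.66 below both for Cdh2, and for Cdh2 they were 0.22 to 0.49 below iPS cells. Both probe sets of each gene had this order between cultures and heart libraries. For Cdh1, whose iPS level was 10.07 by the brighter probe set and 6.80 by the other, the brighter set alone gave -5.26 for adult minus iPS and -4.31 for neonatal minus iPS, against means of -3.62 and -3.04.

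Cdh3 (P-cadherin) is the neighbour of Cdh1 on chromosome 8 and did not follow it. It was at 7.64 with DMSO+NRG-1, 7.40 with NRG-1 and 7.78 with DMSO, against 7.66 in the adult, 8.84 in the neonatal and 8.09 in the iPS library. Its highest level was the neonatal one, and the cultures overlapped the adult library. Epcam, the epithelial cell adhesion molecule, also found on pluripotent cells, was at 9.26, 9.81 and 9.37 in the cultures with DMSO+NRG-1, NRG-1 and DMSO, against 3.79 in the adult, 4.50 in the neonatal and 8.91 in the iPS library. The cultures were only 0.35 to 0.90 above iPS cells, and the contrast lay with the heart libraries, which were under the filter. Ctnnd1 (p120 catenin), which stabilises cadherins at the membrane, ranged from 8.91 in iPS cells to 9.62 with DMSO+NRG-1 and was past 2-fold in no comparison.

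Of the 5 adherens junction and adhesion genes, Cdh1 alone was at least 2-fold higher than in iPS cells in the cultures and 0 were lower. With 5 genes, these counts lie near the shares over all genes, 11.3% to 13.1% higher and 13.1% to 14.5% lower. Of 18 other measured adherens junction genes, 14 passed the filter. Of these, 4 were higher than in iPS cells with DMSO+NRG-1 (13.0% of all genes) and with DMSO (13.1%), namely Cdh5, Cdh6, Cdh17 and Vcl. In both of these cultures 0 were lower (13.1% and 13.3%). With NRG-1, 3 were higher (Cdh5, Cdh6 and Cdh17, with 11.3% of all genes) and 2 lower (Nectin3 and Cdh11, with 14.5%), the lower count being near the share over all genes. Cdh11, a mesenchymal cadherin, was at 6.79, 5.84 and 6.78 with DMSO+NRG-1, NRG-1 and DMSO, against 9.52 in the adult, 10.57 in the neonatal and 6.88 in the iPS library. Cdh17, the liver-intestine cadherin, ran opposite to it, at 6.54, 6.94 and 6.29 in the cultures and between 4.49 and 4.58 in the other libraries.

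Desmosomal genes split by family member. Of 10 measured, 7 passed the filter, and of these 4 were at least 2-fold higher than in iPS cells with DMSO+NRG-1 (13.0% of all genes), 3 with NRG-1 (11.3%) and 5 with DMSO (13.1%). Dsp encodes desmoplakin, the protein that couples the desmosome to intermediate filaments. It was at 10.41 with DMSO+NRG-1, 10.44 with NRG-1 and 10.52 with DMSO, against 5.08 in the adult, 6.41 in the neonatal and 6.33 in the iPS library. The 4.08 to 4.19 above iPS cells was the largest difference of any member in each culture. Desmoplakin is also a component of the intercalated disc, and the adult library was 1.24 below iPS cells.

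The desmosomal cadherins lie together on chromosome 18, where Dsc2 neighbours Dsc3 and Dsg2 neighbours Dsg3. Dsc2, the widely expressed desmocollin, was at 8.62, 8.44 and 8.79 with DMSO+NRG-1, NRG-1 and DMSO, against 4.86 in the adult, 5.54 in the neonatal and 5.48 in the iPS library. Dsg2, the widely expressed desmoglein, was at 7.49, 7.59 and 7.60 in these cultures, against 4.01 in the adult, 4.76 in the neonatal and 5.80 in the iPS library. Dsc3 and Dsg3, the forms of stratified epithelia, were under the filter in every library and did not exceed 4.30 and 4.83. The mean for Dsg2 hid a disagreement between its probe sets. The brighter set read 10.47, 10.53 and 10.41 in the cultures and 7.52 in iPS cells, whereas the other stayed under the filter in all 6 libraries. By the brighter set alone the cultures were 2.95, 3.01 and 2.89 above iPS cells, against 1.70, 1.79 and 1.81 by the mean. The same set gave -3.39 for adult minus iPS, against -1.79 by the mean.

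Plaque proteins other than desmoplakin differed less. Jup (plakoglobin), shared by desmosomes and adherens junctions, was 1.29, 0.87 and 1.31 above iPS cells with DMSO+NRG-1, NRG-1 and DMSO. Pkp2, the plakophilin of the heart and of simple epithelia, was present throughout, from 8.13 in the adult library to 9.49 with DMSO. Pkp1, a plakophilin of stratified epithelia, stayed between 4.32 and 4.66, and Pkp3 lay between 5.14 in the neonatal library and 6.69 with NRG-1. Perp, a tetraspan membrane protein of desmosomes, was at 9.39, 9.20 and 9.64 in the cultures, against 5.40 in the adult, 7.18 in the neonatal and 8.61 in the iPS library. It was 3.21 and 1.43 lower in the adult and neonatal libraries than in iPS cells. Of 8 other measured desmosome and envelope plaque genes only 3 passed the filter. Pkp4, a plakophilin relative, was at 7.13 with DMSO+NRG-1, 6.82 with NRG-1 and 7.25 with DMSO, against 7.11 in the adult, 7.55 in the neonatal and 8.01 in the iPS library, and was past 2-fold lower than in iPS cells with NRG-1. Ppl (periplakin), which links desmosomes to the cornified envelope, was at 7.51, 6.82 and 7.63 in the cultures, against 5.47 in the adult, 5.87 in the neonatal and 5.65 in the iPS library.

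The regulators differed less between cultures and iPS cells than the tight junction genes, with class medians of 0.46 with DMSO+NRG-1, -0.17 with NRG-1 and 0.74 with DMSO. The NRG-1 value was 0.20 with libraries shifted to equal housekeeping levels. Of 11 measured, 3 were at least 2-fold higher with DMSO+NRG-1 (Esrp2, Ovol1 and Snai1), 1 with NRG-1 (Esrp2) and 3 with DMSO (Esrp2, Ovol1 and Elf3), and Grhl3 was lower with NRG-1. The shares over all genes were 13.0%, 11.3% and 13.1% higher and 14.5% lower with NRG-1, so the NRG-1 counts did not exceed them, and the Grhl3 call was lost with equal housekeeping levels. Esrp1 and Esrp2 drive the epithelial splice forms of genes such as Fgfr2. Esrp1 was at 7.22 with DMSO+NRG-1, 7.04 with NRG-1 and 7.32 with DMSO, against 4.29 in the adult, 4.32 in the neonatal and 6.49 in the iPS library. Esrp2 was at 7.81, 7.66 and 7.96 in the cultures, against 7.15 in the adult, 6.19 in the neonatal and 6.07 in the iPS library. By these probe sets the paralogues differed in the heart libraries, where Esrp1 was under the filter and Esrp2 above it, the adult level of Esrp2 being 1.08 above iPS cells. A further probe set, annotated to both Esrp2 and 1810019D21Rik and so not used, was under the filter in both heart libraries. It read 5.17 in the adult, 4.93 in the neonatal and 4.80 in the iPS library.

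Elf3, an epithelium-specific ETS factor, was at 8.33 with DMSO+NRG-1, 7.70 with NRG-1 and 8.51 with DMSO, against 4.11 in the adult, 4.32 in the neonatal and 7.46 in the iPS library. Grhl3, the grainyhead factor of surface ectoderm and bladder epithelium, was at 7.12, 6.47 and 7.46 in the cultures, against 4.37 in the adult, 4.86 in the neonatal and 7.48 in the iPS library. For Grhl3 no culture exceeded iPS cells, while both heart libraries were under the filter. Grhl2, which activates Cdh1 and Cldn4 in mouse epithelia, ranged from 5.73 with NRG-1 to 6.51 with DMSO in the cultures, against 4.80 in the adult, 5.11 in the neonatal and 5.99 in the iPS library. Its differences from iPS cells in the cultures, from -0.26 to 0.51, were under 2-fold. Ovol1, a zinc finger repressor of mesenchymal genes, was 1.13, 0.69 and 1.43 above iPS cells with DMSO+NRG-1, NRG-1 and DMSO.

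The mesenchymal factors were lower in the cultures than in the heart libraries for 3 of the 4 measured. Snai2 (Slug) was at 7.45 with DMSO+NRG-1, 6.40 with NRG-1 and 7.82 with DMSO, against 9.69 in the adult, 8.92 in the neonatal and 7.00 in the iPS library. Twist1, a basic helix-loop-helix factor of mesoderm and fibroblasts, was at 5.44, 5.65 and 5.96 in the cultures, against 7.47 in the adult, 7.98 in the neonatal and 5.82 in the iPS library. Zeb1, a zinc finger repressor of Cdh1, was at 5.72, 5.19 and 5.72 in the cultures, against 7.24 in the adult, 7.47 in the neonatal and 6.11 in the iPS library. For these 3 genes every culture lay below both heart libraries, by at least 1.10, 1.51 and 1.52. Snai1 (Snail) did not separate them, with levels of 6.89, 6.71 and 6.45 in the cultures and 6.55 and 6.63 in the adult and neonatal libraries, and was lowest in iPS cells at 5.80.

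Other epithelial regulators mostly differed from iPS cells in opposite directions in the cultures and the heart libraries. Other mesenchymal transition genes did not, being more often higher than lower in both, and most often in the heart libraries. Of 22 other measured epithelial regulators and polarity genes, 18 or 19 passed the filter in each comparison. Relative to iPS cells, 9 were higher (11.3% to 13.1% of all genes) and 1 (Tfap2c) lower (13.1% to 14.5%) in each culture. In the adult and neonatal libraries 0 were higher (13.1% and 13.0%), and 8 (14.1%) and 9 (11.2%) were lower, with Tfap2c in both. Tmprss2, a serine protease of epithelial membranes, was at 9.94, 9.64 and 10.02 with DMSO+NRG-1, NRG-1 and DMSO, against 5.20 in the adult, 5.40 in the neonatal and 5.76 in the iPS library. Spint2, an inhibitor of such proteases, was at 10.72, 10.78 and 10.82 in these cultures, against 5.95, 6.37 and 9.61 in the adult, neonatal and iPS libraries. Of 13 other mesenchymal transition genes, 10 passed the filter with DMSO+NRG-1, 11 with NRG-1 and 13 elsewhere. Tgfb1, Tgfb2 and Tgfbr2 were higher than in iPS cells in all 3 cultures and Mmp2 in those with DMSO (11.3% to 13.1% of all genes), while 11 (13.1%) and 10 (13.0%) were higher in the adult and neonatal libraries. Tgfbr2, a receptor of transforming growth factor beta, was among those higher in the cultures, at 8.79, 8.40 and 8.83 against 5.39 in iPS cells. Prrx1, a homeobox factor of mesenchyme, was not, at 5.78, 5.49 and 5.84 in the cultures and 5.77 in iPS cells, against 9.35 in the adult and 10.05 in the neonatal library.

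The cultures were compared with each other to ask what NRG-1 and DMSO each added. No gene of the set was 2-fold apart between DMSO+NRG-1 and DMSO. For DMSO+NRG-1 minus DMSO, 0 of 39 genes past the filter were at least 2-fold higher (0.0455% of all genes) and 0 lower (0.0530%), and the differences ran from -0.54 (Cldn8 and Cldn7) to 0.44 (Snai1). The median was -0.10, against -0.01 over all genes. No interval can be given for these differences with 1 library each.

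Between NRG-1 and DMSO alone, the class with the largest median difference was the regulators. For NRG-1 minus DMSO, 0 of 39 genes were higher (0.360%) and 3 lower (1.78%): Cldn8, Snai2 and Grhl1. Cldn8, a claudin of the distal nephron, was at 3.54 with NRG-1 and 5.23 with DMSO, so that only the DMSO culture reached the filter, and barely. Snai2 was at 6.40 with NRG-1 and 7.82 with DMSO, and Grhl1, a grainyhead factor of epidermis that regulates desmosomal genes, at 4.93 and 6.01. The regulator class had a median of -0.74, with 10 of 11 genes lower, while 51.8% of all genes were lower at a median of -0.01. All 5 epithelial transcription factors were among the 10, with differences of -0.74 for Ovol1, -0.77 for Grhl2, -0.81 for Elf3, -0.99 for Grhl3 and -1.08 for Grhl1. Tight junction, adherens junction and desmosome genes had medians of -0.16, -0.18 and -0.05. With libraries shifted to equal housekeeping levels these were 0.04, 0.02 and 0.16, and the regulator median was -0.53. Mesothelial markers moved the same way, with 3 of 6 at least 2-fold lower with NRG-1. Cardiomyocyte markers did too, with a median of -0.58 and Myh6 and Actn2 at least 2-fold lower. Of 6 pluripotency markers, 4 passed the filter, and Sox2 and Tdgf1 were at least 2-fold lower, but the median of the 6 was -0.04. Msln was at 8.34 with NRG-1 and 10.35 with DMSO, and Upk1b at 8.02 and 10.12. Visceral endoderm markers had a median difference of 0.57, and Afp was at 11.48 with NRG-1 and 10.72 with DMSO. The part of these cell types in the regulator differences was not tested.

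For DMSO+NRG-1 minus NRG-1, 1 of 38 genes was at least 2-fold higher (1.08%) and 0 lower (0.293%). The gene was Snai2, at 7.45 with DMSO+NRG-1 and 6.40 with NRG-1, and this call was lost with equal housekeeping levels. The regulator median was 0.52 (0.32 with equal housekeeping levels), and 10 of 11 regulators were higher. This comparison shares the NRG-1 library with the preceding one.

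**Figure D4:**
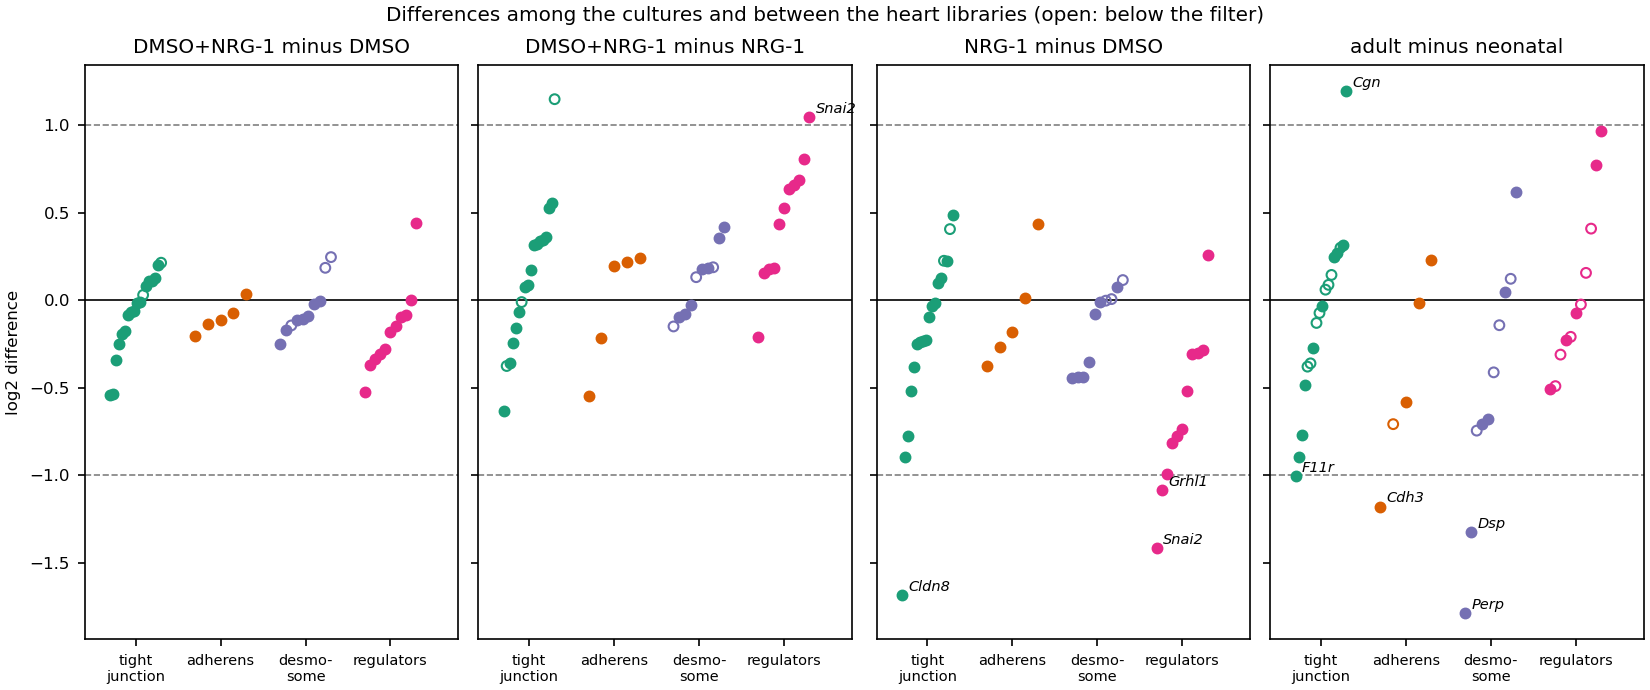
Log2 differences (vertical axis) of the 44 genes among the 3 cultures and between the heart libraries, 1 panel per comparison, with genes grouped and coloured by class. Filled points passed the filter, open points did not, dashed lines mark 2-fold, and genes past both are named. In the panel for NRG-1 minus DMSO the regulators lie mostly below 0, down to -1.42 for Snai2.

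The heart libraries were compared to describe the set with the label of age. For adult minus neonatal, 1 of 25 genes past the filter was higher (2.52%) and 4 were lower (2.92%). With equal housekeeping levels the split was 0 higher and 5 lower. The higher gene was Cgn, at 6.60 in the adult and 5.41 in the neonatal library. The lower genes were Perp, Dsp, Cdh3 and F11r. Perp was at 5.40 in the adult and 7.18 in the neonatal library, Dsp at 5.08 and 6.41, Cdh3 at 7.66 and 8.84, and F11r at 7.16 and 8.16. Dsg2 differed by -2.00 by its brighter probe set, at 4.13 and 6.14, but by under 2-fold by the mean, which did not reach the filter. The epithelial markers had a log2 summed level of 8.56 in the adult and 10.4 in the neonatal library, and the mesothelial markers 8.66 and 10.1, with 3 and 6 of 6 past the filter. Of 8 cardiomyocyte markers 3 were at least 2-fold lower in the adult library, with Nppa at 5.06 in the adult and 10.31 in the neonatal library, Tnnt2 at 8.22 and 9.76, and Myh6 at 5.05 and 6.47. Of 6 macrophage markers 3 were at least 2-fold higher in the adult library, with Lyz2 at 8.24 and 5.98. The part of these cell types in these differences was not tested. The Y-linked gene levels above differed between these libraries too, and age and the sex of the animals cannot be told apart.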

How the data were processed

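Each of the 6 mouse libraries started from 300 ng of RNA and filled 1 Affymetrix array, per the labels' protocols. The deposited table holds log2 values of 41345 probe sets that the authors made with RMA (background correction, equalised distributions, probe summary), per the submitters' processing notes. No version or genome build of that step is known here. That the scale is log2 follows from the range of values. When each column was sorted, columns were within 0.285 of each other at every rank, so a shift common to most genes would be hidden. Arrays give no read depth, and precision is limited by having 1 array per group.

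Probe sets with 1 symbol (23521) gave 22180 genes, each the mean of its probe sets. Differences, counts at 2-fold past the filter (5.20, the median of all values), list summaries and motif counts were computed with Python 3.11.15 and pandas 2.3.3. Alternatives were no filter, a filter at the 75th percentile (6.93), the brightest probe set, cyclic loess (limma 3.58.1, R 4.3.3) and a shift to equal medians of 11 housekeeping genes. The counting step was tested on simulated data. The text names members of the set, marker genes, and up to 4 genes of each other list with the largest difference of cultures or heart libraries from iPS cells. Other genes named in small counts were chosen after their values were seen. The members and lists were chosen with earlier results of these data known.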

Additional observations from a re-analysis of the deposited data

Results flagged for a closer look

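For 5 genes every culture was at least 2-fold above iPS cells while both heart libraries were at least 2-fold below, which was true of 34 of 14579 genes in all (0.233%). The difference between the groups was not tested, and both sides share the iPS library. The distance from the lowest culture to the higher heart library was 5.24 for Ocln, 4.89 for Cldn4, 4.73 for Cldn6, 4.33 for Cdh1 and 2.74 for Dsg2. Relative to iPS cells, Ocln differed by 3.91 to 4.10 in the cultures and by -1.71 and -1.33 in the adult and neonatal libraries. Cldn4 differed by 2.90 to 3.42 in the cultures and by -2.89 and -2.00 in these heart libraries. The corresponding values for Cldn6 were 2.17 to 2.37 and -3.04 and -2.56. Cdh1 differed by 1.30 to 1.51 in the cultures and by -3.62 and -3.04 in the heart libraries. Dsg2, with probe sets that disagree, differed by 1.70 to 1.81 and by -1.79 and -1.04.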

How the results depend on the processing

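No paired analysis was possible because each group has 1 library. The brightest probe set left all 20 counts within 1.5 times. Without a filter, genes higher in DMSO+NRG-1 than in NRG-1 numbered 2 in place of 1. With the filter at the 75th percentile, 8 genes were lower in adult and 7 in neonatal than in iPS cells, 0 were higher in adult than in neonatal, and 1 was lower in NRG-1 than in DMSO, because fewer dim genes entered. Cyclic loess gave 2 genes higher in adult than in neonatal, and the cause was not tested. The housekeeping shift moved the median of all genes by up to 0.37. It gave 0 genes lower in NRG-1 than in iPS cells (21 higher, against 14 as deposited), 0 higher in adult than in neonatal and 0 higher in DMSO+NRG-1 than in NRG-1. Of 396 single differences, 7 moved by over 1.5-fold with the brightest probe set, all of Dsg2 or Cdh1, and none with cyclic loess or with the shift relative to the median of all genes. No called difference changed sign under these settings. Under the shift, without that correction, medians below 0 as deposited came out above 0 for regulators in NRG-1 minus iPS (0.20) and for all 44 genes in neonatal minus iPS (0.10), and those of DMSO+NRG-1 minus NRG-1 came out below 0 for tight junction, adherens junction and desmosome genes (-0.08, -0.01 and -0.05). Without detection values, signal over background could not be judged, which limits Cldn1, Cldn2, Cldn5, Cldn8, Cldn9, Dsg3, Dsc3 and Pkp1 most.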

Other observations

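Hemidesmosome genes, which anchor epithelial cells to the basement membrane, were higher than in iPS cells for 4 of 8 measured with DMSO+NRG-1, 3 with NRG-1 and 4 with DMSO, and 0 were lower. The shares over all genes were 13.0%, 11.3% and 13.1% higher, and 13.1%, 14.5% and 13.3% lower. The higher genes were Itga6, Itgb4 and Plec in all cultures and Lamb3 in those with DMSO. Itgb4, the integrin beta subunit of this contact, was at 7.87 with DMSO+NRG-1, 7.67 with NRG-1 and 7.91 with DMSO, against 5.88 in the adult, 5.44 in the neonatal and 5.91 in the iPS library. Its partner Itga6 was at 10.61, 10.60 and 10.67 in the cultures, against 7.77, 8.41 and 9.49 in the adult, neonatal and iPS libraries. Lama3, the laminin chain they bind, was highest in the DMSO culture and in iPS cells, at 7.41 and 7.39. Plec (plectin), which links the contact to filaments, was at 8.17, 8.20 and 8.05 in the cultures, against 7.86 in the adult, 8.19 in the neonatal and 6.68 in the iPS library. In the heart libraries Plec and Cd151 were at least 2-fold higher than in iPS cells, as was Dst in the neonatal one, and Itga6 and Lama3 were lower. Every culture lay above every other library for both integrins.

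Of 9 measured gap junction genes, which form channels between cells, Gjb2 was higher than in iPS cells in each culture and Gjb5 was lower, as was Gjc1 with DMSO+NRG-1. With 5 or 6 genes past the filter, these counts lie near the shares over all genes, 11.3% to 13.1% higher and 13.1% to 14.5% lower. Gjb2, an epithelial connexin, was at 6.23 with DMSO+NRG-1, 6.12 with NRG-1 and 6.59 with DMSO, against 5.57 in the adult, 5.20 in the neonatal and 5.09 in the iPS library. Gjb5 was brightest in iPS cells at 7.66, against at most 5.78 in any other library.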
